A study of Mus musculus with 20 samples.

Results

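The circadian clock genes Clock, Per1, Per2, Per3, Cry1, Cry2, Nr1d1, Nr1d2, Dbp and Bhlhe40 were examined in the mouse uterus shortly before embryo implantation. They were found in the deposited expression table by their gene symbols. All 10 were listed among 45777 genes, and all 10 were above 0 TPM in every library and so were among the 18706 genes tested. TPM is a measure of transcript abundance corrected for transcript length and scaled to the same total in every library.

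RNA from 1 uterine horn was sequenced in 20 wild-type B6D2F1 females aged 8 to 12 weeks, with 5 mice in each of 4 groups. All mice had mated and were killed at 18:00 on day 3.5 post coitum, the evening before implantation starts, and were kept under 14 h of light and 10 h of darkness. The control group was untreated. Mice of the IF (implantation failure model), PBMC and PBMC-hCG groups were all given RU486, which blocks the progesterone and glucocorticoid receptors, at 3 mg/kg under the skin at 9:00 on day 3.5. In the PBMC group and the PBMC-hCG group 50000 peripheral blood mononuclear cells (PBMCs) had been put into each horn on day 1.5. These cells came from non-pregnant mice and had been cultured for 24 h without hCG (human chorionic gonadotropin) in the PBMC group and with 5 IU/mL hCG in the PBMC-hCG group. Mice given medium alone were not analysed here, so an effect of the injection and an effect of the cells cannot be told apart. Each group was sampled at a single time of day, so a shift in the timing of the clock and a change in its strength cannot be told apart. The sources used here do not give the clock time at which the lights came on.

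The mammalian clock is a feedback loop of transcription. CLOCK and its partner BMAL1, the product of Arntl, bind E-boxes and switch on the Per and Cry genes, whose proteins return to the nucleus and block CLOCK and BMAL1. The same activators switch on Nr1d1 and Nr1d2, which encode the REV-ERB repressors of Arntl, and Dbp, a factor that binds D-boxes in output genes and in some Per genes. BHLHE40, also called DEC1, competes for E-boxes. In most tissues the genes switched on by BMAL1 and Arntl itself peak at opposite times of the day, and the uterus holds such a clock in its stroma, epithelium and muscle.

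Of the 10 genes, 8 had promoter windows in RefSeq (GRCm38.p6), running from 250 bases before to 50 bases after a start site, 11 windows in all. Windows for Per2 and Bhlhe40 were not used here. The E-box CACGTG was present in 2 of the 8 genes, Per1 and Cry1, and in 7.15% of all 32851 windows of 300 bases. The D-box, searched as TTATGTAA or TTACGTAA on both strands, was present in Per3 alone among the 8 genes, and in 1.06% of all windows. A part of these motifs in the expression differences was not tested. Stretches are shown for Per1, Cry1 and Per3, the only ones of the 8 genes with a match to a motif searched here. Each stretch runs from 250 to 51 bases before the start site of its window, and capitals mark the motif. The Per1 stretch lies at chr11:69098699-69098898 on the plus strand and its E-box begins 166 bases before the start site of that window. This stretch lies inside the Per1 gene, which begins at 69095108, so its start site is an internal one. The Cry1 stretch lies at chr10:85185105-85185304 on the minus strand, with the E-box 60 bases before the start site. The Per3 stretch lies at chr4:151044716-151044915 on the minus strand, with D-boxes beginning 205 and 158 bases before the start site.
Per1: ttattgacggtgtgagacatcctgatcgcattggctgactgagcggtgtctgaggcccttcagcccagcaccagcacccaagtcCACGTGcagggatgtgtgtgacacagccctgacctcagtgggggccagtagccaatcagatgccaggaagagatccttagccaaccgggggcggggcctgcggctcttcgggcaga
Cry1: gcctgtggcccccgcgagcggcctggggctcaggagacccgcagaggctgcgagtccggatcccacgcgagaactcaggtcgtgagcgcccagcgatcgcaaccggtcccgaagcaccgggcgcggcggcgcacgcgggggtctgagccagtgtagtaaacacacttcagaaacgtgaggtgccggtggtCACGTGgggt
Per3: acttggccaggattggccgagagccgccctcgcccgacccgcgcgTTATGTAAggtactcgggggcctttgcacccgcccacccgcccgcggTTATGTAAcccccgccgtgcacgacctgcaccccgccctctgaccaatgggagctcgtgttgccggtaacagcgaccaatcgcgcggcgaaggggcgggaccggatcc
The ROR element, the site bound by REV-ERB and ROR proteins and searched as ANTAGGTCA or ANTGGGTCA on both strands, was in none of the 11 windows and in 1.45% of all windows. Searches on both strands for the cAMP response element TGACGTCA, for the glucocorticoid response element (GNACA and TGTNC with 3 bases between them) and for the estrogen response element (GGTCA and TGACC with 3 bases between them) found no match in the 11 windows either. These 3 motifs were in 1.79%, 0.475% and 0.0700% of all windows, and a missing match says only that the letters are not in these windows.

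The uterine origin of the libraries was visible in the summed levels of 8 epithelial markers (750 to 1471 TPM), 8 stromal markers (5220 to 11346 TPM) and 8 muscle markers (4863 to 11189 TPM), none of which was at 0 in every library. The library of control replicate 2 stood apart. Its median correlation with its group was 0.963, against 0.980 or more in the other 19 libraries, its stromal sum was the lowest and its 5 adipose tissue markers summed to 331 TPM, against 65.7 TPM or less elsewhere. This mouse had the lowest Clock level of all 20 and the highest Dbp, Nr1d1, Nr1d2, Per3 and Cry2 levels of its group. The differences from control that are given for the 10 genes are therefore also given without it. Where it was the highest control mouse, leaving it out must raise the difference from control. Passes gained only in this way are thus a description and no separate support. Separations of groups given apart from this mouse have no share over all genes beside them. Without this mouse 4 of the 10 genes passed between IF and control, 5 between PBMC and control and 6 between PBMC-hCG and control by limma's test described below, beside 26.7%, 24.7% and 40.1% of all genes. The study and the labels name no sequencing batch.

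At the levels per transcript length, Nr1d1, Dbp and Nr1d2 were the highest of the 10 genes, with means over the 20 mice of 88.0, 77.9 and 58.7 TPM. Bhlhe40 averaged 37.4 TPM, Per1 27.5 TPM, Cry2 24.5 TPM, Clock 18.9 TPM, Per3 18.5 TPM, Per2 13.4 TPM and Cry1 11.9 TPM. The spread between mice of a group differed widely. The within-group SD on the log2(TPM + 0.1) scale was 0.55 for Dbp, 0.49 for Bhlhe40, 0.46 for Per3 and 0.44 for Nr1d1, against a median of 0.23 over all tested genes, and it was lowest for Clock at 0.16.

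**Figure D1:**
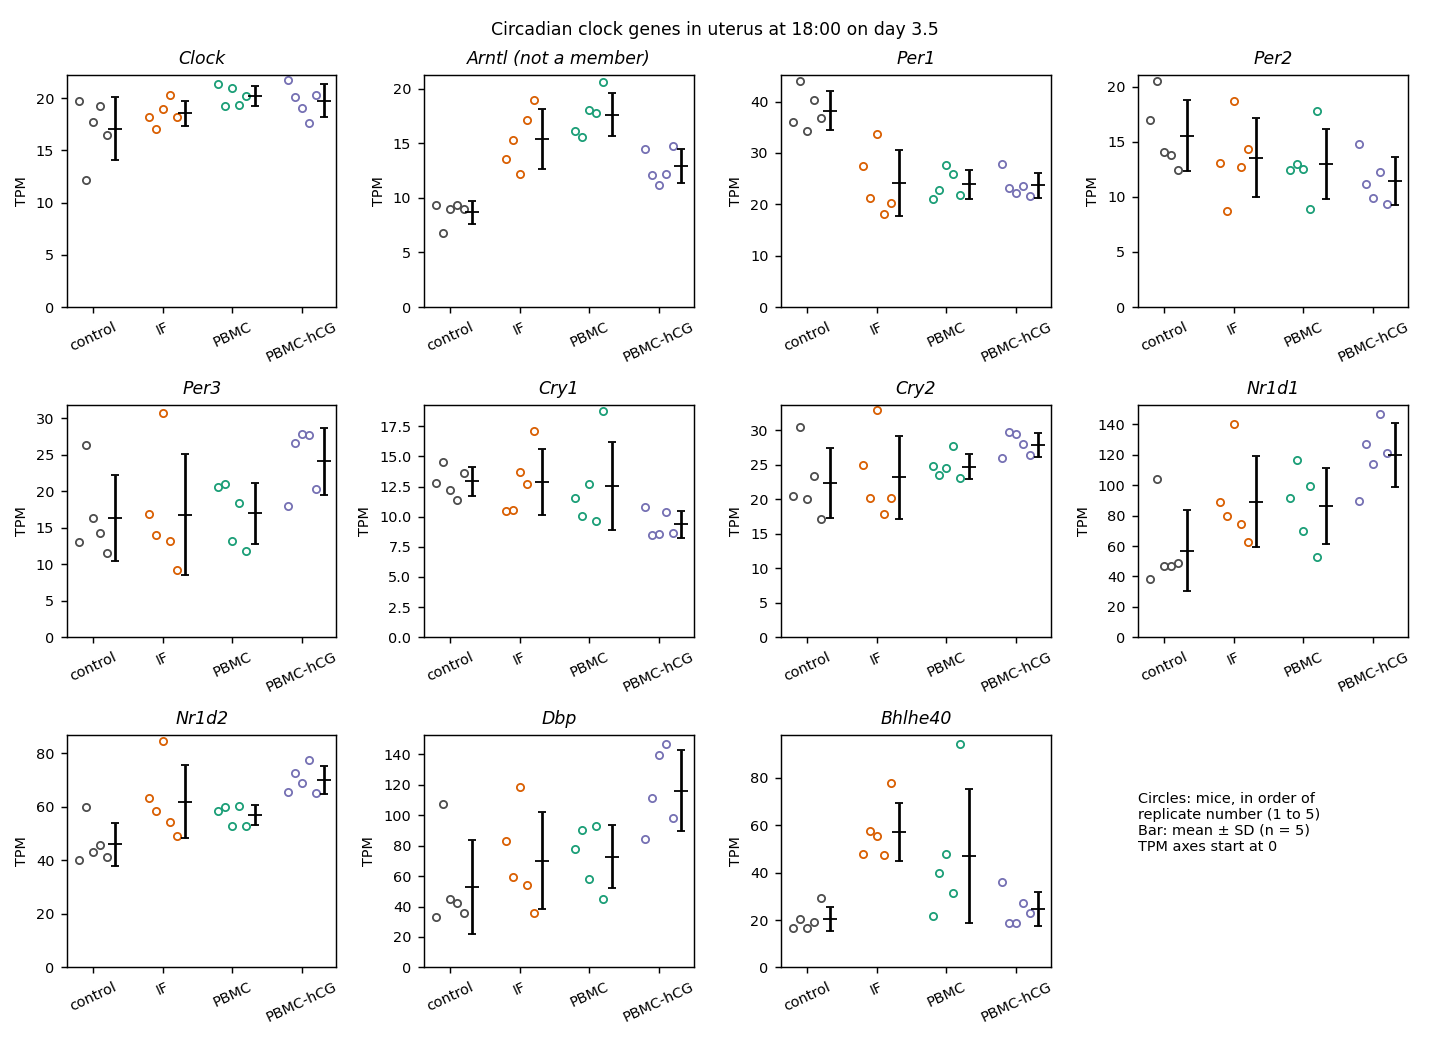
Levels of the 10 clock genes and of Arntl in TPM, by group, with a circle for each mouse in the order of replicate number and the mean ± SD beside them (n = 5). The 5 control mice lie above all other mice for Per1 (34.3 to 43.9 TPM), Bhlhe40 is highest in the IF group, and control replicate 2 stands above its group for Dbp and Nr1d1.

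The number of clock genes that passed limma's test, with a Benjamini-Hochberg adjusted p under 0.05 over all tested genes, was 3 of 10 between IF and control, 2 of 10 between PBMC and control and 5 of 10 between PBMC-hCG and control. In the same comparisons 21.9%, 19.5% and 31.8% of all tested genes passed. These 3 comparisons share the same 5 control mice. As all 4 groups were fitted together, leaving out a mouse outside the 2 compared groups can change the adjusted p but not the fold change. Between PBMC-hCG and IF, 1 of 10 passed and 13.6% of all genes did. Between PBMC and IF no clock gene passed limma's test and 0.0% of all genes did. In that comparison no clock gene had an unadjusted p under 0.05 by limma, beside 6.79% of all genes, and 1, Clock, had one by the exact permutation test, beside 6.02%. Between PBMC-hCG and PBMC no clock gene passed limma's test and 0.0107% of all genes did. There 4 clock genes had an unadjusted p under 0.05 by limma, beside 16.2% of all genes, and 3 had one by the exact permutation test, beside 19.7%. With array weights, which give less weight to libraries that deviate from their group, 2 clock genes passed there, beside 7.81% of all genes. Set against these shares, 3 of 10 and 2 of 10 lay close to 21.9% and 19.5%, and 1 of 10 lay close to 13.6%. The 5 of 10 lay above 31.8%, but an excess of clock genes was not tested. Leaving out each mouse moved that count to 4 to 7 (25.4% to 40.1% of all genes). Of the 5, Nr1d1, Nr1d2 and Dbp also varied together between mice (r = 0.89 to 0.94), so they are not separate counts. The median log2 fold change of the 10 genes was 0.30 between PBMC-hCG and control, against 0.08 over all tested genes, 0.22 against 0.05 between PBMC and control, and 0.09 against 0.02 between IF and control.

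Values of the 2 groups did not overlap for 2 of the 10 genes between IF and control, 1 between PBMC and control and 3 between PBMC-hCG and control, where the same was true of 12.8%, 12.7% and 18.3% of all genes. They did not overlap for 1 gene between PBMC-hCG and IF and 1 between PBMC-hCG and PBMC, beside 7.24% and 3.46% of all genes, and for none between PBMC and IF, beside 1.01%. The study's criteria, a fold change of at least 2 with an unadjusted p under 0.05, were met in limma's fit by Bhlhe40 alone in the comparisons of IF with control, PBMC with control and PBMC-hCG with IF, where 4.03%, 3.34% and 2.31% of all genes met them. Nr1d1 and Dbp met them between PBMC-hCG and control, beside 4.74% of all genes. No clock gene met them between PBMC and IF or between PBMC-hCG and PBMC, where 0.438% and 0.893% of all genes did.

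**Figure D2:**
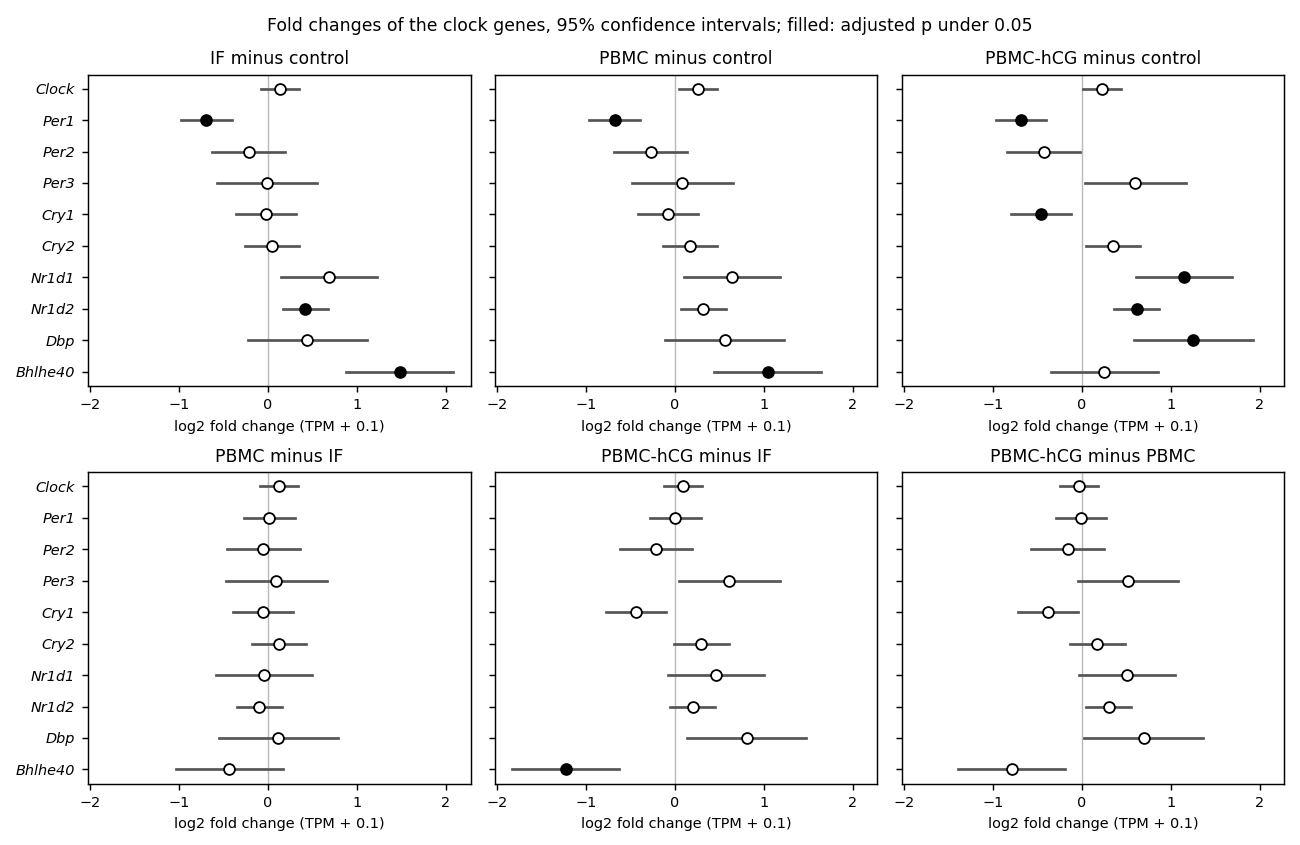
Log2 fold changes of the 10 clock genes on the log2(TPM + 0.1) scale in 6 comparisons, with 95% confidence intervals from limma (n = 5 per group). Filled circles passed at an adjusted p under 0.05: Per1 lies below 0 in all 3 comparisons with control, Bhlhe40 lies above 0 in IF and PBMC, and Nr1d1, Nr1d2 and Dbp lie above 0 in PBMC-hCG.

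Clock (chr5:76209868-76305603), which encodes the activator that pairs with BMAL1, varied least. Positions given with the genes are those of RefSeq on GRCm38.p6, and all 10 are protein-coding. Its level was 19.8, 12.2, 17.7, 19.3 and 16.5 TPM in the control mice, 18.2, 17.0, 19.0, 20.3 and 18.2 TPM in the IF mice, 21.4, 19.2, 21.0, 19.4 and 20.2 TPM in the PBMC mice and 21.8, 20.1, 19.0, 17.6 and 20.3 TPM in the PBMC-hCG mice. The 4 groups overlapped, apart from the low value of control replicate 2. The log2 difference from control was 0.26 in PBMC (95% confidence interval 0.05 to 0.48, adjusted p = 0.0796 by limma) and 0.23 in PBMC-hCG (0.01 to 0.44, adjusted p = 0.0972), so neither passed. Without control replicate 2 the differences were 0.15 (adjusted p = 0.152 by limma) and 0.11 (adjusted p = 0.239), and without control replicate 1 they were 0.32 and 0.28 and both passed (adjusted p = 0.0408 and 0.0496 by limma).

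Arntl and Npas2, which encode the partner of CLOCK and a relative of CLOCK, are not among the 10 genes but were counted with them as the other activators. Arntl was at 9.30, 6.78, 8.94, 9.31 and 8.98 TPM in the control mice, 13.5, 15.3, 12.1, 17.2 and 18.9 TPM in the IF mice, 16.1, 15.5, 18.1, 17.8 and 20.6 TPM in the PBMC mice, and 14.5, 12.1, 11.2, 12.1 and 14.7 TPM in the PBMC-hCG mice. Every mouse given RU486 was above every control mouse. Arntl rose 1.76-fold in IF (adjusted p = 0.000114 by limma), 2.03-fold in PBMC (adjusted p = 1.49e-05) and 1.49-fold in PBMC-hCG (adjusted p = 0.00191) relative to control. Leaving control replicate 2 out, these were 1.66-fold, 1.91-fold and 1.40-fold, and each remained called. Npas2 rose 1.41-fold, 1.38-fold and 1.31-fold in the same 3 comparisons (adjusted p = 0.0151, 0.0228 and 0.0405 by limma), so 2 of these 3 activators rose in each, and Arntl2 did not pass in any. The shares of all genes that passed there were 21.9%, 19.5% and 31.8%.

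Per1 (chr11:69095108-69109965) fell in all 3 groups given RU486. It encodes a PERIOD repressor and is known as a gene that also responds quickly to glucocorticoids and other signals. Its level was 36.0, 43.9, 34.3, 40.3 and 36.7 TPM in the control mice and 27.5, 21.2, 33.8, 18.0 and 20.2 TPM in the IF mice. It was 21.1, 22.7, 27.7, 25.9 and 21.9 TPM in the PBMC mice and 27.9, 23.2, 22.3, 23.5 and 21.5 TPM in the PBMC-hCG mice. All 15 mice given RU486 were below all 5 control mice, the nearest being IF replicate 3. Per1 was 1.62-fold lower in IF than in control (log2 fold change -0.69 ± 0.14 SE, adjusted p = 0.00116 by limma). It was 1.60-fold lower in PBMC (-0.68 ± 0.14, adjusted p = 0.00151 by limma) and 1.61-fold lower in PBMC-hCG (-0.69 ± 0.14, adjusted p = 0.00094 by limma). Each of the 3 differences gave p = 0.00794 in the two-sided exact permutation test over all arrangements of the mice, the smallest it can give with 5 against 5 mice. Without control replicate 2 the difference remained called in all 3, at -0.64, -0.63 and -0.64.

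Among the 3 groups given RU486, Per1 differed by a log2 fold change of 0.0138 between PBMC and IF (95% confidence interval -0.27 to 0.30), 0.0048 between PBMC-hCG and IF (-0.28 to 0.29) and -0.009 between PBMC-hCG and PBMC (-0.29 to 0.27). None passed, and differences anywhere within these intervals remain compatible with the data. The sign of these 3 small differences changed with the processing. Of the 12 genes of a list of other known glucocorticoid targets, 7 fell and 4 rose between IF and control, 7 fell and 2 rose between PBMC and control, and 6 fell and 2 rose between PBMC-hCG and control. Among all tested genes, 21.9%, 19.5% and 31.8% passed in these comparisons. Fkbp5, a chaperone partner of steroid receptors, was 3.51-fold, 3.65-fold and 4.50-fold lower, and Zbtb16, a transcription factor, was 15.4-fold, 14.6-fold and 8.56-fold lower in the same order. Fkbp5 and Zbtb16 respond to progesterone as well, and of 11 tested genes of a progesterone response list 4 fell and 1 rose between IF and control. The part of either receptor in the Per1 difference was not tested.

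Per2 (chr1:91415977-91459351) and Per3 (chr4:150997018-151044707), the other PERIOD genes, did not pass in any comparison. Per2 was at 17.0, 20.5, 14.05, 13.8 and 12.5 TPM in the control mice, 13.1, 8.71, 18.7, 12.8 and 14.4 TPM in the IF mice, 12.5, 13.0, 12.6, 8.94 and 17.8 TPM in the PBMC mice and 14.8, 11.1, 9.86, 12.2 and 9.35 TPM in the PBMC-hCG mice. The groups overlapped, and the lowest log2 difference from control, -0.43 in PBMC-hCG (95% confidence interval -0.84 to -0.02), had an adjusted p of 0.1 by limma. It was -0.33 without control replicate 2 (adjusted p = 0.203 by limma). Per3 was at 13.0, 26.3, 16.4, 14.2 and 11.5 TPM in the control mice, 16.9, 14.03, 30.7, 13.2 and 9.19 TPM in the IF mice, 20.5, 20.9, 13.1, 18.4 and 11.8 TPM in the PBMC mice and 18.0, 26.6, 27.8, 27.6 and 20.3 TPM in the PBMC-hCG mice. Control replicate 2 and IF replicate 3 were high in otherwise low groups. The log2 difference of PBMC-hCG was 0.60 ± 0.27 from control (adjusted p = 0.0979 by limma) and 0.61 ± 0.27 from IF (adjusted p = 0.117 by limma). With control replicate 2 left out the first passed (0.79, adjusted p = 0.0227 by limma). With IF replicate 3 left out both did (0.60, adjusted p = 0.0461, and 0.86, adjusted p = 0.0177 by limma), though this mouse is outside the first comparison. Per3 lies on the same strand as Camta1 and overlaps it by 41014 bases, and Camta1 did not exceed 8.15 TPM.

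Cry1 (chr10:85131700-85185054) and Cry2 (chr2:92403646-92434085) encode the cryptochromes, the repressors that pair with the PERIOD proteins. Cry1 was at 12.8, 14.5, 12.2, 11.4 and 13.6 TPM in the control mice, 10.5, 10.5, 13.7, 12.7 and 17.1 TPM in the IF mice, 11.6, 10.1, 12.7, 9.60 and 18.8 TPM in the PBMC mice and 10.8, 8.50, 8.52, 10.4 and 8.68 TPM in the PBMC-hCG mice. All 5 PBMC-hCG mice were below all 5 control mice, and the other groups overlapped with both. Cry1 was 1.38-fold lower in PBMC-hCG than in control (log2 fold change -0.46 ± 0.16 SE, adjusted p = 0.0343 by limma). This call was lost without control replicate 1, 2 or 5 or PBMC-hCG replicate 2, 3 or 5, with adjusted p-values of 0.0575 to 0.0755 and log2 fold changes of -0.46 to -0.42, the latter without control replicate 2. Relative to IF, Cry1 in PBMC-hCG was 1.36-fold lower and did not pass (adjusted p = 0.0671 by limma). It passed without PBMC-hCG replicate 1 (0.047) or without PBMC replicate 5 (0.0279), a mouse outside this comparison. Cry2 was at 20.5, 30.4, 20.1, 23.4 and 17.1 TPM in the control mice, 24.9, 20.1, 32.9, 17.9 and 20.1 TPM in the IF mice, 24.8, 23.4, 24.6, 27.7 and 23.0 TPM in the PBMC mice and 25.9, 29.7, 29.5, 27.9 and 26.4 TPM in the PBMC-hCG mice. Control replicate 2 was again the highest control mouse and IF replicate 3 the highest of all. Cry2 was 0.35 ± 0.15 higher in PBMC-hCG than in control on the log2 scale and did not pass (adjusted p = 0.0771 by limma). Without control replicate 2 it did (0.46, adjusted p = 0.0104 by limma), and likewise without IF replicate 3, a mouse outside this comparison (adjusted p = 0.0327).

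Nr1d1, Nr1d2 and Dbp, which CLOCK and BMAL1 switch on, rose in the PBMC-hCG group relative to control. Nr1d1 (chr11:98767932-98775377), which encodes REV-ERB alpha, was at 38.2, 103.9, 46.7, 47.1 and 49.1 TPM in the control mice and 89.1, 79.7, 140.3, 74.4 and 62.7 TPM in the IF mice. It was at 91.3, 116.9, 70.0, 99.6 and 52.9 TPM in the PBMC mice and 89.6, 127.0, 113.7, 147.1 and 121.2 TPM in the PBMC-hCG mice. Apart from control replicate 2, every control mouse was below every mouse given RU486. Nr1d1 was 2.22-fold higher in PBMC-hCG than in control (log2 fold change 1.15 ± 0.26 SE, adjusted p = 0.00255 by limma). The differences of 0.69 ± 0.26 in IF and 0.64 ± 0.26 in PBMC did not pass (adjusted p = 0.0637 and 0.0912 by limma). With control replicate 2 left out the difference in PBMC-hCG was 1.39 and the other two passed, at 0.93 (adjusted p = 0.00452 by limma) and 0.88 (adjusted p = 0.00722 by limma). Those in IF and PBMC passed as well without PBMC replicate 5 (adjusted p = 0.0471 and 0.0343), a mouse outside the comparison of IF with control. Without IF replicate 5 the difference in IF did (adjusted p = 0.0473).

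Nr1d2 (chr14:18204056-18239106), which encodes REV-ERB beta, was at 40.3, 59.8, 43.0, 45.7 and 41.3 TPM in the control mice and 63.3, 58.6, 84.5, 54.2 and 49.0 TPM in the IF mice. It was at 58.2, 60.0, 52.9, 60.2 and 52.6 TPM in the PBMC mice and 65.6, 72.5, 68.9, 77.6 and 64.9 TPM in the PBMC-hCG mice. All 5 PBMC-hCG mice were above all control and all PBMC mice. Nr1d2 rose 1.53-fold in PBMC-hCG (0.61 ± 0.12, adjusted p = 0.000937 by limma) and 1.34-fold in IF (0.42 ± 0.12, adjusted p = 0.0182 by limma) relative to control, and the log2 differences were 0.71 and 0.52 without control replicate 2, both called. The call in IF was lost with quantile normalization (adjusted p = 0.0586) and with only the 2 groups in the fit (adjusted p = 0.0941). The 1.24-fold difference in PBMC did not pass (adjusted p = 0.0755 by limma), and without control replicate 2 it did (0.41, adjusted p = 0.0105 by limma). It also did without IF replicate 3, a mouse outside this comparison (adjusted p = 0.0249). The 1.23-fold difference between PBMC-hCG and PBMC did not pass limma's test (adjusted p = 0.284), although the groups did not overlap.

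Dbp (chr7:45705100-45710203) was at 33.4, 107.5, 44.7, 42.5 and 35.8 TPM in the control mice and 83.3, 59.6, 118.2, 53.9 and 36.0 TPM in the IF mice. It was at 77.5, 90.4, 58.2, 92.9 and 44.7 TPM in the PBMC mice and 84.4, 111.1, 139.5, 146.5 and 98.4 TPM in the PBMC-hCG mice. Leaving aside control replicate 2, all PBMC-hCG mice were above all control mice. Dbp was 2.38-fold higher in PBMC-hCG than in control (1.25 ± 0.32, adjusted p = 0.00623 by limma), and 2.92-fold higher without control replicate 2 (adjusted p = 0.000339). The differences from control of 0.44 ± 0.32 in IF and 0.56 ± 0.32 in PBMC did not pass (adjusted p = 0.359 and 0.246 by limma). Leaving out control replicate 2, the difference in PBMC was 0.85 and passed (adjusted p = 0.0323 by limma), and that in IF was 0.74 and did not (adjusted p = 0.0583). Both passed with array weights (adjusted p = 0.0355 in IF and 0.00229 in PBMC by limma). Between PBMC-hCG and IF it was 1.75-fold higher and did not pass (adjusted p = 0.086 by limma), and it did without IF replicate 3 (2.04-fold, adjusted p = 0.0256 by limma) or without control replicate 2 (adjusted p = 0.0384 by limma), which enters that comparison only through the shared estimate of spread. Nr1d1 overlaps Thra by 1075 bases and Dbp overlaps Sphk2 by 737 bases, each on the opposite strand. Thra averaged 74.6 ± 4.31 TPM (SD, n = 5) in control and 116.5 ± 13.9 TPM (SD, n = 5) in PBMC-hCG. The library kit keeps the strand, but the sources used here do not state whether the quantification used it.

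Bhlhe40 (chr6:108660629-108666925) had the largest fold change of the 10 genes in the IF group and the widest range over the 20 mice, 5.61-fold. It was at 16.8, 20.5, 16.8, 19.3 and 29.2 TPM in the control mice and 47.9, 57.5, 55.4, 47.4 and 77.8 TPM in the IF mice. It was at 21.8, 39.8, 47.9, 31.3 and 94.2 TPM in the PBMC mice and 35.9, 18.6, 18.8, 27.0 and 23.1 TPM in the PBMC-hCG mice. All IF mice were above all control and all PBMC-hCG mice, while the PBMC mice ranged from near the control level to the highest value of all 20 mice. Bhlhe40 rose 2.79-fold in IF (1.48 ± 0.29, adjusted p = 0.00109 by limma) and 2.06-fold in PBMC (1.04 ± 0.29, adjusted p = 0.0149 by limma) relative to control. The call in PBMC was lost with only the 2 groups in the fit (adjusted p = 0.0615). In PBMC-hCG it was 1.19-fold control, with a 95% confidence interval of 0.784 to 1.81 and an adjusted p of 0.539 by limma. The 3 differences without control replicate 2 were 1.49, 1.05 and 0.26 on the log2 scale, and the calls were as with it. Without PBMC replicate 5, the highest mouse, the rise in PBMC was 1.68-fold (adjusted p = 0.0305 by limma).

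Relative to IF, Bhlhe40 was 2.35-fold lower in PBMC-hCG (-1.23 ± 0.29, adjusted p = 0.0287 by limma). This call was lost without IF replicate 2, 4 or 5 or PBMC-hCG replicate 2, 3, 4 or 5, with adjusted p-values of 0.0535 to 0.0992 and log2 fold changes of -1.29 to -1.11. In the same 7 fits the number of genes that passed over the whole table fell from 2544 to between 0 and 34, so without any 1 of these mice nearly all calls of this comparison were gone. The log2 difference between PBMC and IF was -0.44 (adjusted p = 0.783 by limma) and that between PBMC-hCG and PBMC -0.79 (adjusted p = 0.281). Without PBMC replicate 5 they were -0.73 (adjusted p = 0.219 by limma) and -0.50 (adjusted p = 0.661), so this mouse decided which of the 2 was the larger, and neither passed with or without it. With array weights the second passed (-0.70, adjusted p = 0.0493 by limma). BHLHE40 is also known to be induced by cell stress and growth signals. Of 10 immediate early genes, 4 rose between IF and control, 6 between PBMC and control and 2 between PBMC-hCG and control, beside 21.9%, 19.5% and 31.8% of all genes that passed. The part of the immediate early genes in the Bhlhe40 difference was not tested.

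The other genes of the clock pathway were counted by role. Rora, an activator of Arntl that binds the same element as the REV-ERBs, was the only one of 8 other repressors and timing genes that passed between IF and control. There 21.9% of all genes passed. Rora rose 1.36-fold in IF, 1.52-fold in PBMC and 1.87-fold in PBMC-hCG (adjusted p = 0.042, 0.00765 and 0.000216 by limma). In the same list Tipin fell between PBMC-hCG and control. Between PBMC-hCG and IF, Rora was 1.38-fold higher and Nfil3, a repressor that competes with DBP for D-boxes, 1.58-fold lower (adjusted p = 0.048 and 0.0397 by limma). Of the 2 other PAR bZIP factors, the family of DBP, 1 passed in that comparison and none against control. This was Hlf, 2.22-fold higher in PBMC-hCG than in IF (adjusted p = 0.0287 by limma). With all mice 13.6% of all genes passed in that comparison. Without IF replicate 5 or without PBMC-hCG replicate 3 no gene did, so the calls of Rora, Nfil3 and Hlf were lost.

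Of 11 kinases, ligases and proteases of the clock, 4 rose between IF and control, 4 between PBMC and control and 5 between PBMC-hCG and control, and none fell. In these 3 comparisons 21.9%, 19.5% and 31.8% of all genes passed. Csnk1d and Csnk1e, the casein kinases that mark PERIOD proteins for degradation, rose in each of the 3, by 1.20-fold and 1.30-fold in IF. Of 10 clock output genes, 2 rose and 3 fell between IF and control, 2 rose and 3 fell between PBMC and control, and 3 rose and 2 fell between PBMC-hCG and control. Wee1, a cell cycle kinase under E-box control, fell in all 3, by 0.82, 0.67 and 0.59 on the log2 scale. These output genes did not move one way. Between PBMC-hCG and IF, Upp2 rose and Fbxw11 fell in these lists, and both calls were lost without IF replicate 5 or without PBMC-hCG replicate 3. Between PBMC and IF none of these lists had a gene that passed.

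The cell types of the horn also differed between groups. All 6 endothelial markers were higher in each of the 3 groups given RU486 than in control, and 5 of 8 muscle markers were lower in PBMC-hCG than in control. Against control, 21.9% of all genes passed in IF, 19.5% in PBMC and 31.8% in PBMC-hCG. The summed muscle level was 5969 to 11189 TPM in the control mice and 4863 to 6105 TPM in the PBMC-hCG mice. The summed endothelial level was 366 to 492 TPM in control and 611 to 685 TPM in PBMC-hCG. Of 8 epithelial markers, 5 rose and 2 fell between IF and control. The part of these differences in the clock gene results was not tested, and in whole horns fewer cells of a type and less RNA per cell cannot be told apart.

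The clock genes also varied together between mice of the same group. Deviations of each mouse from its group mean on the log2 scale were correlated over the 20 mice for all 45 pairs, with values permuted within groups 100000 times. After adjustment over the 45 pairs, 16 passed by Pearson's r, 14 positive and 2 negative, and 13 passed by Spearman's rho. The points share the library, so any difference in tissue make-up between mice enters all genes at once.

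**Figure D3:**
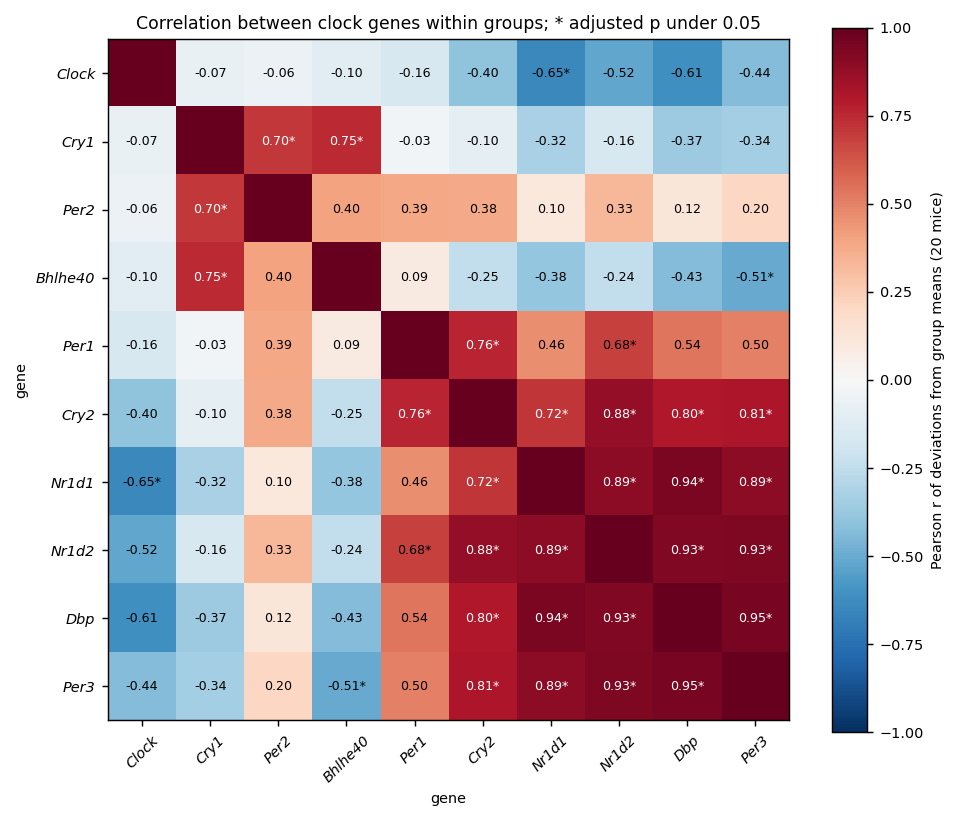
Pearson correlations between the 10 clock genes over 20 mice, computed on deviations from the group means of log2(TPM + 0.1), with a star at an adjusted p under 0.05. Per3, Dbp, Nr1d1, Nr1d2 and Cry2 form a block of positive values, and Per2, Cry1 and Bhlhe40 lie outside it.

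Per3 and Dbp gave the highest correlation (r = 0.948, rho = 0.937, adjusted permutation p = 0.000225 for each). Nr1d1 and Dbp followed with r = 0.938 and rho = 0.935, then Per3 and Nr1d2 with r = 0.934 and rho = 0.884. Cry2 was tied to all 4 of these genes, most closely to Nr1d2 (r = 0.878, rho = 0.821). Without the 2 mice farthest from the median, r was still 0.932 for Per3 and Dbp and 0.875 for Nr1d1 and Dbp. Per1 was linked to Cry2 (r = 0.761, rho = 0.642) and Nr1d2 (r = 0.683, rho = 0.579), and by rho the latter did not pass (adjusted permutation p = 0.0667). Outside the block, Per2 correlated with Cry1 (r = 0.704, rho = 0.651, adjusted permutation p = 0.0137 and 0.0181) and Cry1 with Bhlhe40 (r = 0.749, rho = 0.684, adjusted permutation p = 0.0102 and 0.0119). Without the 2 farthest mice r was 0.711 for Per2 with Cry1. For Cry1 with Bhlhe40 it fell to 0.518, with PBMC replicate 5 and IF replicate 5 left out. The negative pairs were Clock with Nr1d1 (r = -0.648, rho = -0.556) and Per3 with Bhlhe40 (r = -0.507, rho = -0.549), and by rho neither passed (adjusted permutation p = 0.0546 and 0.0667). Clock with Nr1d1 fell to r = -0.325 without the 2 farthest mice.

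Control replicate 2 and IF replicate 3 were then left out together, a choice made after the data were seen. The core of the block kept its correlations, with r = 0.933 for Per3 and Dbp and 0.803 for Per3 and Nr1d1. The pairs of Cry2 did not pass any more. Per1 with Nr1d2 (r = 0.318, adjusted permutation p = 0.45) and Clock with Nr1d1 (r = -0.482, adjusted permutation p = 0.0832) did not either. Per3 with Bhlhe40 was at r = -0.776 and passed by r and by rho (adjusted permutation p = 0.00457 and 0.0366). Dbp with Bhlhe40 (r = -0.661) passed by r (adjusted permutation p = 0.0276) but not by rho (0.0646). Cry1 then correlated negatively with Dbp (r = -0.811), Per3 (r = -0.774), Nr1d1 (r = -0.768) and Nr1d2 (r = -0.666), with adjusted permutation p-values of 0.00804, 0.00985, 0.0135 and 0.0276 over 18 mice. By rho the pairs with Dbp, Per3 and Nr1d2 passed as well (adjusted permutation p = 0.0346, 0.0383 and 0.0366) and the pair with Nr1d1 did not (0.0529). With all 20 mice these pairs were negative but did not pass, with r = -0.366 for Dbp and -0.341 for Per3. With PBMC replicate 5 and IF replicate 5 left out instead, the 2 mice farthest for Cry1, the negative values were gone. There r was 0.006 for Cry1 with Dbp, 0.060 with Nr1d1 and 0.169 with Nr1d2. The negative pairs of Cry1 with these 3 genes therefore depend on which mice are left out.

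Arntl ran against the block. This comparison was added after the values had been seen, and p-values were adjusted over its 10 pairs, of which 6 passed. Arntl correlated with Per3 at r = -0.923 (rho = -0.887, adjusted permutation p = 0.0001, the smallest that the permutations can give) and with Dbp at r = -0.916 (rho = -0.862, adjusted permutation p = 0.0002). Its correlations with Nr1d2, Nr1d1 and Cry2 were -0.859, -0.843 and -0.732, and without the 2 farthest mice r was -0.882 for Per3 and -0.865 for Dbp. Clock correlated positively with Arntl (r = 0.529, rho = 0.475) and passed by r (adjusted permutation p = 0.0472) but not by rho (adjusted permutation p = 0.0715). Within groups, then, mice with more Dbp and Per3 had less Arntl, while between the control and PBMC-hCG groups Dbp and Arntl were both higher in PBMC-hCG.

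**Figure D4:**
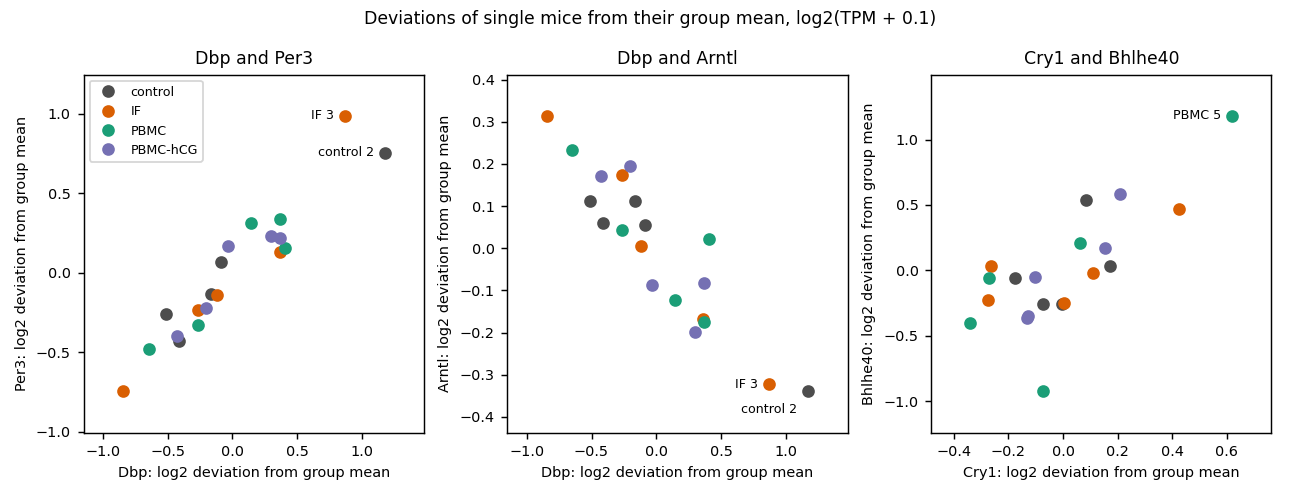
Deviations of the 20 mice from their group means of log2(TPM + 0.1) for Dbp and Per3 (left), Dbp and Arntl (middle) and Cry1 and Bhlhe40 (right), coloured by group. Per3 rises with Dbp (r = 0.948) and Arntl falls with it (r = -0.916), with control replicate 2 and IF replicate 3 at one end, and PBMC replicate 5 lies at the upper end for Cry1 and Bhlhe40.

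The genes most alike in these deviations were sought among 15770 tested genes with a mean of at least 1 TPM, as a description over 20 mice. For Per3 the closest was Tef, a PAR bZIP factor like DBP, at r = 0.993, followed by Ddo at 0.973 and Tmem136 at 0.967. Nr1d1 was closest to Neil2 (r = 0.971), Nr1d2 to Ctsf (r = 0.956) and Dbp to Xpc (r = 0.968), and Xpc was among the 3 closest genes of all 3. Bhlhe40 was closest to Pim1 (r = 0.902), followed by Zfp330 at 0.899 and Cebpb at 0.895. Cry1 was closest to Tuba4a (r = 0.946), Cry2 to Dlx5 (r = 0.930), Clock to Ppp6r3 (r = 0.924) and Per1 to Cd300a (r = 0.827).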

How the data were processed

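Uterine RNA of 20 mice, 5 in each of 4 groups taken from the sample labels, was measured by RNA-seq. The authors trimmed reads with Trimmomatic, mapped them to mm10 with HISAT2, assembled transcripts with StringTie and deposited TPM values. The totals of the libraries lay between 999989 and 999999, so depth is unknown and no counting error is given. The edgeR exact test of the study needs counts and was not run. Instead, log2(TPM + 0.1) of the 18706 genes above 0 in all libraries was fitted with limma 3.58.1 (R 4.3.3) with a variance trend and all 4 groups together, and p-values were adjusted by Benjamini-Hochberg within each comparison. The pseudocount draws fold changes of low genes toward 0. The p-values measure the spread between mice. The steps were tested on simulated data. The 10 genes and the other lists were chosen with earlier results of these data known. All 10 were described, and genes of other lists were counted and named only if they passed in at least 1 comparison, not all of those that did, apart from Arntl, Npas2 and Arntl2, which were named whatever they did, and genes most alike to a clock gene. The 3 genes most alike to each were sought by Pearson's r of deviations from group means, and those of Per2 are not reported here. Gene and promoter positions are from RefSeq and overlaps from GENCODE, both on GRCm38. Permutations used numpy 2.4.6. Alternatives were other pseudocounts, filters, scalings, fits and criteria, and leaving out each mouse.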

Additional observations from a re-analysis of the deposited data

Results flagged for a closer look

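Of 52 tests for a sample far from its group (13 genes in 4 groups of 5 mice), 3 stood out, all in control replicate 2, where chance flags about 1 in 20 groups. Nr1d1 was at 103.9 TPM and Dbp at 107.5 TPM in this mouse, each far above the other 4 control mice, and Arntl was at 6.78 TPM, below them. The same library had the highest adipose marker sum, 331 TPM, and the lowest stromal sum of all, and the part of tissue make-up in these values was not tested. As it was the highest control mouse for Nr1d1 and Dbp, leaving it out could only raise their differences from control. Between PBMC-hCG and control the log2 fold changes were then 1.39 for Nr1d1 and 1.55 for Dbp.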

How the results depend on the processing

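The depth behind the TPM values is unknown, so low levels carry no stated error. The counts of clock genes that passed moved with the criterion and with single mice, and so did the shares of all genes, given here in parentheses. Between IF and control, 5 passed with array weights (33.4%) and 1 met the criteria of the study (4.03%), instead of 3 (21.9%). Between PBMC and IF, 1 passed by the exact permutation test without adjustment (6.02%), instead of 0 (0.0%). Between PBMC-hCG and IF, 7 passed with array weights (43.2%), 3 by the exact permutation test (33.9%) and 6 without control replicate 2 and IF replicate 3 (35.6%), an alternative added after the data were seen, instead of 1 (13.6%), and leaving out each mouse gave 0 to 5 (0.0% to 27.0%). Between PBMC-hCG and PBMC, 2 passed with array weights (7.81%) and 3 by the exact permutation test (19.7%), instead of 0 (0.0107%). Between PBMC and control, 1 passed with only the 2 groups in the fit (13.5%), 5 with array weights (36.4%), 6 without the 2 mice (27.4%), 1 by the criteria of the study (3.34%) and 4 by the exact permutation test (27.4%), instead of 2 (19.5%), and leaving out each mouse gave 2 to 5 (15.8% to 24.7%), with 5 without control replicate 2. Between PBMC-hCG and control, 8 passed with array weights (51.1%) and 2 met the criteria of the study (4.74%), instead of 5 (31.8%), and leaving out each mouse gave 4 to 7 (25.4% to 40.1%). The 16 pairs of genes that correlated became 13 to 16 when each mouse was left out. The causes were not tested.

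The signs of Per1 and Dbp changed where the difference was near 0. Between PBMC and IF it was -0.00139 with quantile normalization, -0.0165 with median centring and -0.0814 to 0.144 when each mouse was left out. Between PBMC-hCG and IF these were -0.0147, -0.0567 and -0.0904 to 0.135, and between PBMC-hCG and PBMC leaving out each mouse gave -0.0691 to 0.0462. For Dbp between PBMC and IF, leaving out each mouse gave -0.0974 to 0.331. Cry1 between PBMC-hCG and control also did not pass without the filter (adjusted p = 0.0536) or without the 2 mice (adjusted p = 0.0621).

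Groups share replicate numbers in the labels, but the numbers were not taken to pair the mice: 8 of 30 same-numbered pairs correlated above 0.1 in their deviations, with a range of -0.247 to 0.457, and 2 of 20 mice correlated best with a mouse of their own number. The replicate 5 mice of control, IF and PBMC did deviate together (r = 0.396, 0.457 and 0.272), and none of them correlated above 0.1 with replicate 5 of PBMC-hCG. With the replicate number as a block, the counts of clock genes that passed were the same as without it. They are given with the shares of all genes in that fit. The counts were 3 between IF and control (22.2%), 0 between PBMC and IF (0.0%) and 0 between PBMC-hCG and PBMC (0.0107%). They were 2 between PBMC and control (19.4%) and 5 between PBMC-hCG and control (32.5%). Between PBMC-hCG and IF 1 passed, while the share of all genes was 17.2%, against 13.6% without the block.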
